A study of Trichoderma reesei with 12 samples.

Results

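Genes that were close to silent in darkness and transcribed in light were followed in Trichoderma reesei, a filamentous ascomycete that degrades plant biomass. They were chosen by their values in the wild-type QM6a. A gene was taken if its mean was below 5 normalized counts (reads scaled by each library's size factor) in constant darkness (DD) and at least 20 in constant light (LL). The choice was limited to the 150 genes with the highest mean in LL, and genes numbered TrE0011 to TrE0016 were left out, of which 4 of 6 met these limits. This gave 29 of the 10879 genes in the data, so that the limit of 150 was not reached. In the comparison that the rule used, QM6a LL against QM6a DD, 15.3% of all tested genes were called higher and 21.6% lower (limma, called as given below). In the 29 genes the rule made it nearly certain that the QM6a LL libraries lay above the QM6a DD libraries. This order is therefore no separate result.

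RNA of mycelium grown for 96 h at 28 °C in minimal medium with cellulose was sequenced in 12 libraries. They were 3 each of Δrgs4 in LL, Δrgs4 in DD, QM6a in LL and QM6a in DD. Δrgs4 is QM6a with the gene rgs4, which encodes a regulator of G-protein signaling, replaced by a hygromycin resistance marker, and all Δrgs4 libraries come from 1 deletion strain. In the paper, a copy number measurement pointed to more than 1 copy of the deletion cassette in this strain. Its growth defect on glucose segregated with the deletion in backcrossed progeny, of which no libraries are included here. The labels give light as constant over the cultivation, so that each library shows a state of long adaptation and no time course of switching on.

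Fungi perceive blue light with the help of GATA-type transcription factors. In T. reesei these are BLR1 and BLR2, and the PAS/LOV protein ENV1 acts beside them. On cellulose, light also acts on the transmission of nutrient signals, in which heterotrimeric G-proteins and cAMP take part. RGS proteins speed up the hydrolysis of GTP by G-alpha subunits and thereby shorten their signal. In the wild-type the comparison of light with darkness chose the genes, and the comparison within Δrgs4 shows what the same genes did in a strain without RGS4.

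Each library held between 11.25 and 15.84 M (mega) reads on genes. The deleted gene rgs4 (TrG0496W) had 0 to 5 reads in the 6 Δrgs4 libraries and 1470 to 2040 reads in the 6 QM6a libraries, as the labels say. Replicate 3 of Δrgs4 in DD lay apart from its group. Over all tested genes its median absolute log2 difference was 0.227 to replicate 1 and 0.205 to replicate 2, while replicates 1 and 2 differed by 0.115. Folds and calls that this library moved are therefore also given without it. The flasks are the replicates, so that p-values measure the spread between cultures of 1 strain.

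None of the 29 genes has a description in the study's gene lists, and none of their identifiers is found in the RefSeq gene table used here. They are therefore named by identifier, and no function is given. Levels of different genes cannot be ranked as amounts of transcript, because gene lengths were not available here.

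Light raised nearly the whole set in Δrgs4 too. Limma on log2(normalized counts + 2), with Benjamini-Hochberg adjustment over 8895 genes, called 28 of the 29 genes higher in Δrgs4 LL than in Δrgs4 DD. A call required a log2 fold change beyond 0.58 and an adjusted p under 0.05. Of all tested genes 14.2% were called higher and 22.0% lower in this comparison. The log2 fold changes of the 29 genes ran from -0.14 to 9.99 with a median of 4.02, against a median of -0.01 over all tested genes. As several genes had few or no reads in DD, the median log2 ratio of the group means without a pseudocount was also calculated, with genes at 0 reads placed at their lower bound, and was 5.08. In 28 of the 29 genes every Δrgs4 LL library was above every Δrgs4 DD library, which was the case in 30.5% of all tested genes. The exception in both counts was TrC1159C. Without replicate 3 of Δrgs4 in DD 26 genes were called. All 29 genes passed the filter of at least 10 reads in at least 3 libraries, which QM6a LL alone could fulfil, and 27 would have passed it on the Δrgs4 libraries alone, all but TrA2035W and TrA0023W.

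**Figure D1:**
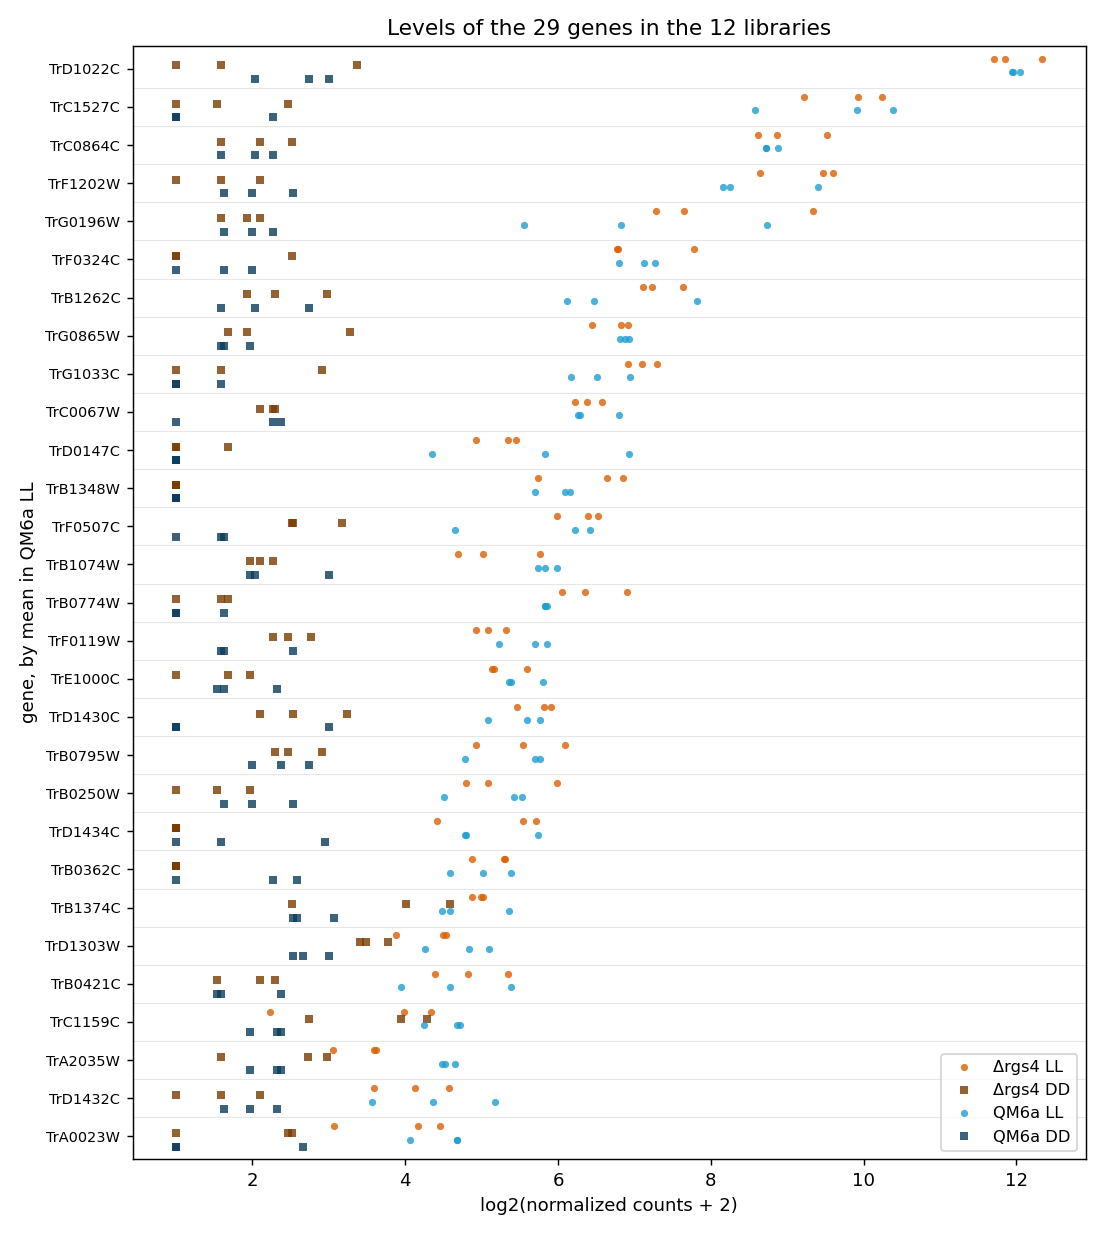
Level of each of the 29 genes in the 12 libraries as log2(normalized counts + 2), with 1 point per library and genes ordered by their mean in QM6a LL. The Δrgs4 LL points lie right of the Δrgs4 DD points in 28 of the 29 genes, while in TrC1159C they overlap.

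TrD1022C took the largest number of reads of the set in every LL library. It had 5175, 3347 and 3704 normalized counts in the Δrgs4 LL libraries, against 1.0, 0 and 8.3 in the Δrgs4 DD libraries. QM6a had 4219, 3940 and 3987 in LL and 4.7, 2.1 and 6.0 in DD. The LL libraries of both strains were thus far above all 6 DD libraries. The log2 fold change within Δrgs4 was 9.99 ± 0.48 (SE, adjusted p = 2.12e-08, limma). Of the 10 reads in Δrgs4 DD, 9 lay in replicate 3, without which it was 10.68 (adjusted p = 6.09e-10). This gene alone held 43.8% to 57.6% of the reads on the 29 genes in Δrgs4 LL and 47.1% to 65.2% in QM6a LL.

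The next 4 genes by wild-type level in LL had means between 332 and 926 normalized counts in Δrgs4 LL. TrC1527C had 595.1, 1207 and 975.5 normalized counts in Δrgs4 LL, against 0, 3.5 and 0.9 in Δrgs4 DD, with a log2 fold change of 8.13 ± 0.53 (SE, adjusted p = 2.54e-07, limma). Its QM6a libraries had 378.9, 958.9 and 1339 in LL and 2.8, 0 and 0 in DD. The LL ranges of the strains overlapped widely.

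TrC0864C had 735.2, 392.2 and 463.0 normalized counts in Δrgs4 LL and 1.0, 2.3 and 3.7 in Δrgs4 DD. Its fold change of 6.94 ± 0.29 on the log2 scale (SE) had the lowest adjusted p of the set in this comparison, 7.54e-09 (limma). In QM6a it had 470.6, 418.9 and 420.1 in LL and 2.8, 2.1 and 1.0 in DD. The LL values of QM6a were close together and lay within those of Δrgs4.

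TrF1202W had 775.9, 708.0 and 397.0 normalized counts in Δrgs4 LL and 1.0, 2.3 and 0 in Δrgs4 DD, which gave a log2 fold change of 7.68 ± 0.41 (SE, adjusted p = 4.86e-08, limma). QM6a had 283.6, 301.3 and 672.3 in LL and 3.8, 1.1 and 2.0 in DD. Replicates 1 and 2 of QM6a in LL were below all Δrgs4 LL libraries, but replicate 3 was not. TrG0196W had 153.7, 644.1 and 198.9 in Δrgs4 LL and 1.0, 2.3 and 1.8 in Δrgs4 DD, against 45.2, 110.9 and 423.9 in QM6a LL and 2.8, 1.1 and 2.0 in QM6a DD. Its light values spread widely in both strains, and its log2 fold change within Δrgs4 was 6.21 ± 0.71 (SE, adjusted p = 1.84e-05, limma).

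TrF0324C, TrB1262C, TrG0865W, TrG1033C and TrC0067W completed the 10 genes with the highest wild-type means in LL. TrF0324C had 217.9, 107.2 and 108.2 normalized counts in Δrgs4 LL and 0, 0 and 3.7 in Δrgs4 DD. TrB1262C had 136.6, 196.1 and 147.6 in Δrgs4 LL, against 2.9, 5.9 and 1.8 in Δrgs4 DD. TrG1033C had 154.6, 134.5 and 119.2 in Δrgs4 LL and 1.0, 0 and 5.5 in Δrgs4 DD. In all 3 genes the LL libraries stood apart from those in DD, with log2 fold changes between 4.92 and 5.61. Replicate 3 held all 4 reads of TrF0324C and 6 of the 7 reads of TrG1033C in Δrgs4 DD, and without it their log2 fold changes were 6.11 and 5.82, against 5.61 and 5.28 with it.

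TrG0865W showed 111.2, 118.6 and 85.3 normalized counts in Δrgs4 LL and 7.7, 1.2 and 1.8 in Δrgs4 DD, against 119.8, 110.0 and 115.7 in QM6a LL and 1.9, 1.1 and 1.0 in QM6a DD. TrC0067W reached 81.4, 93.5 and 72.4 in Δrgs4 LL and 2.9, 2.3 and 2.8 in Δrgs4 DD, against 74.6, 76.2 and 109.0 in QM6a LL and 2.8, 3.2 and 0 in QM6a DD. For both genes the strains overlapped in LL and the light libraries were clear of the dark ones. Their log2 fold changes within Δrgs4 were 4.43 ± 0.36 and 4.17 ± 0.34 (SE).

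No read was found in any Δrgs4 DD library for 3 genes. With 0 reads in 3 libraries up to 3 reads remain possible, which corresponds to a group mean of 1.01 normalized counts (counting error only). TrB1348W had 0 reads in all 6 DD libraries, and 113.9, 51.3 and 98.1 normalized counts in Δrgs4 LL, against 66.0, 49.9 and 69.2 in QM6a LL. Its LL mean was at least 87.2-fold higher than the DD mean in Δrgs4 and at least 61.4-fold higher in QM6a. TrD1434C and TrB0362C were at least 37.9-fold and at least 33.8-fold higher in Δrgs4 LL, and had reads in some QM6a DD libraries. Conversely, TrD0147C had 0 reads in QM6a DD and 1 read in Δrgs4 DD, with 41.6, 38.8 and 28.4 normalized counts in Δrgs4 LL and 18.3, 55 and 119.5 in QM6a LL.

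At the other end, 6 genes had log2 fold changes of 2.53 or less in Δrgs4. TrC1159C did not pass the test. It had 2.7, 18.2 and 13.8 normalized counts in Δrgs4 LL and 13.4, 4.7 and 17.5 in Δrgs4 DD, which gave a log2 fold change of -0.14 ± 0.54 (SE, adjusted p = 0.837, limma). QM6a, whose values chose the gene, had 24.4, 16.9 and 23.7 in LL and 1.9, 3.2 and 3.0 in DD. The light and dark libraries of Δrgs4 thus overlapped fully, and the direction depended on single libraries, with a log2 fold change of 0.50 without replicate 1 of Δrgs4 in LL and 0.17 without replicate 3 of Δrgs4 in DD.

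TrD1303W had 12.7, 20.5 and 21.1 normalized counts in Δrgs4 LL and 8.6, 11.7 and 9.2 in Δrgs4 DD, against 17.1, 32.2 and 26.6 in QM6a LL and 3.8, 4.3 and 6.0 in QM6a DD. The groups within Δrgs4 came close but did not overlap, and the log2 fold change of 0.74 ± 0.30 (SE) was called with an adjusted p of 0.0495 (limma). This call was lost in 15 of 20 alternatives. TrB1374C had 29.8, 27.4 and 30.3 in Δrgs4 LL and 22.1, 14.1 and 3.7 in Δrgs4 DD, against 22.0, 20.3 and 38.9 in QM6a LL and 3.8, 6.4 and 4.0 in QM6a DD. Its log2 fold change within Δrgs4 was 1.26 ± 0.46 (SE, adjusted p = 0.0342, limma), with replicates 1 and 2 in DD close to the LL libraries. Without replicate 3 of Δrgs4 in DD neither was called, with log2 fold changes of 0.66 (adjusted p = 0.105, limma) for TrB1374C and 0.70 (adjusted p = 0.0970, limma) for TrD1303W. TrB1374C also lost its call without any 1 of the 3 Δrgs4 LL libraries (log2 fold changes 1.23 to 1.30, adjusted p 0.0614 to 0.0801).

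TrA2035W had 6.3, 10.3 and 10.1 normalized counts in Δrgs4 LL and 1.0, 5.9 and 4.6 in Δrgs4 DD, against 23.2, 20.3 and 20.9 in QM6a LL and 1.9, 3.2 and 3.0 in QM6a DD. It was called with a log2 fold change of 1.0 ± 0.37 (SE, adjusted p = 0.0368, limma). TrA0023W had 19.9, 16.0 and 6.4 in Δrgs4 LL and 0, 3.5 and 3.7 in Δrgs4 DD, with a log2 fold change of 1.91 ± 0.58 (SE, adjusted p = 0.0144, limma). TrD1432C had 15.4, 21.7 and 10.1 in Δrgs4 LL and 1.0, 2.3 and 0 in Δrgs4 DD, with a log2 fold change of 2.53 ± 0.46 (SE, adjusted p = 0.000666, limma). Without replicate 1 of Δrgs4 in DD, the calls of TrA2035W (log2 fold change 0.57, adjusted p = 0.143, limma) and TrA0023W (1.41, adjusted p = 0.0585) were lost. TrA2035W was also not called without replicate 2 or 3 of either strain in LL, nor TrA0023W without replicate 1 of Δrgs4 in LL. Both genes passed the read filter only through QM6a LL, where the rule required high values. In the fit of the 6 Δrgs4 libraries alone they were not tested. These 6 genes were among the 7 with the lowest wild-type means in LL, so that few reads stood behind each value.

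**Figure D2:**
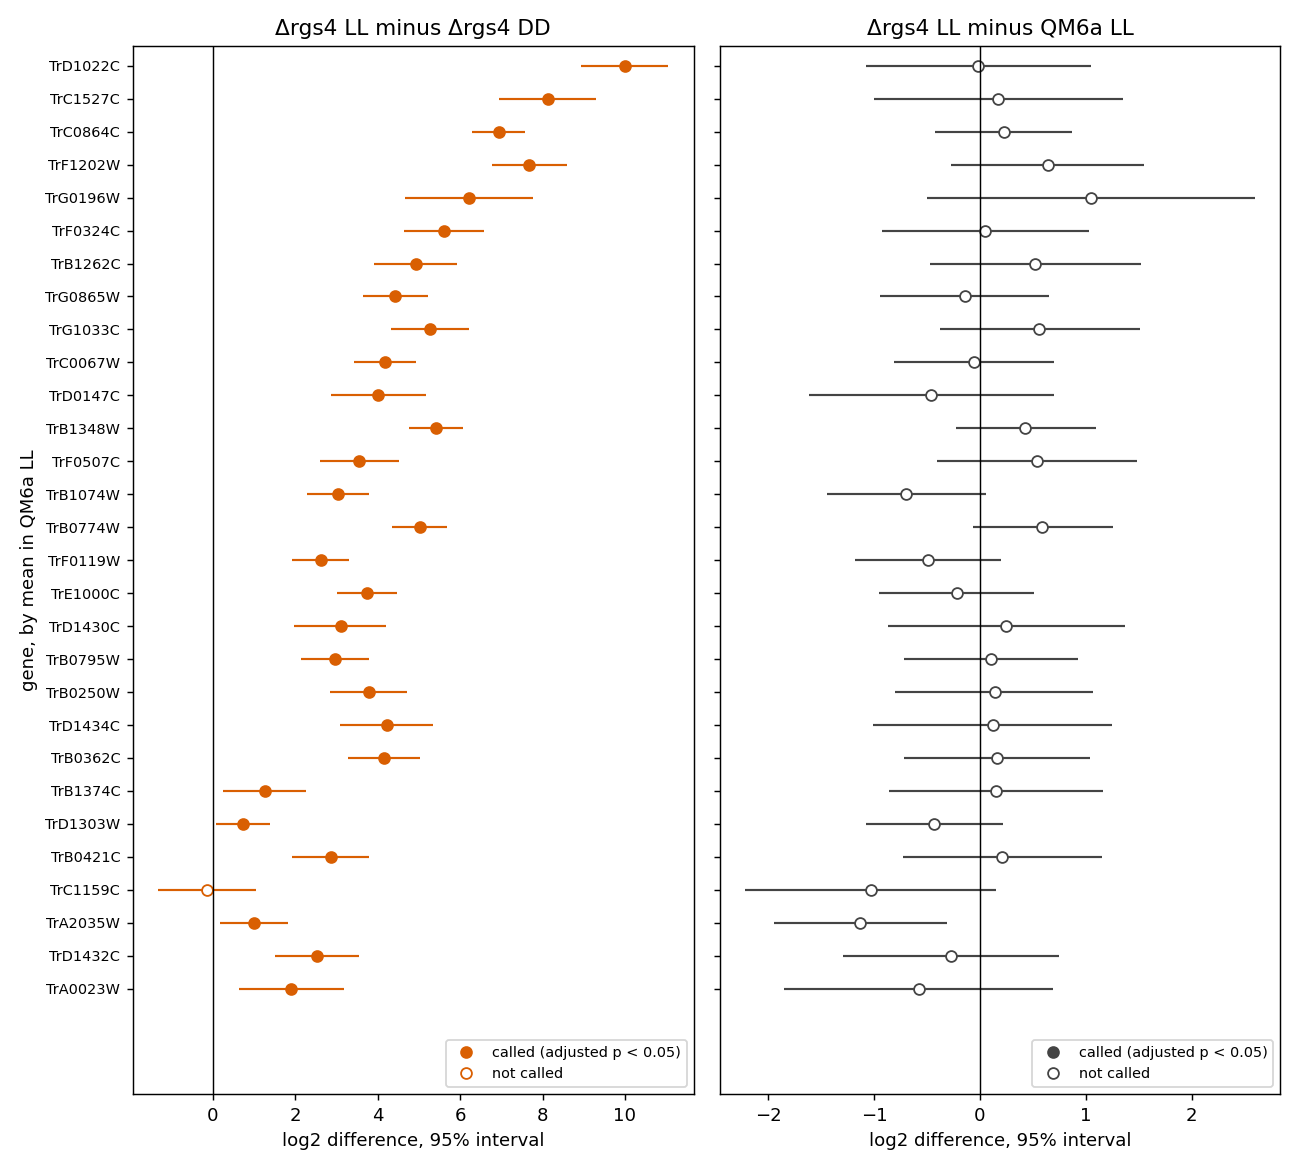
Log2 difference with its 95% interval for each of the 29 genes, within Δrgs4 (LL minus DD, left) and between the strains in light (Δrgs4 minus QM6a, right), with filled points for called genes. Left, the interval includes 0 for TrC1159C only, and right no gene is called, with values between -1.13 and 1.05.

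The remaining 9 genes had means from 20 to 100 normalized counts in QM6a LL. All of them were called higher in Δrgs4 LL than in Δrgs4 DD. Among them TrB0774W had 117.6, 79.8 and 64.2 normalized counts in Δrgs4 LL and 1.0, 1.2 and 0 in Δrgs4 DD. TrB1074W had 52.5, 23.9 and 30.3 in Δrgs4 LL and 1.9, 2.3 and 2.8 in Δrgs4 DD. TrE1000C had 46.1, 33.1 and 33.9 in Δrgs4 LL and 1.9, 1.2 and 0 in Δrgs4 DD. Their log2 fold changes were 5.02, 3.04 and 3.75.

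TrF0119W had 38.0, 31.9 and 28.4 normalized counts in Δrgs4 LL and 4.8, 3.5 and 2.8 in Δrgs4 DD, against 50.1, 35.5 and 55.9 in QM6a LL and 3.8, 1.1 and 1.0 in QM6a DD. TrB0795W had 66.0, 44.5 and 28.4 in Δrgs4 LL and 2.9, 3.5 and 5.5 in Δrgs4 DD. The light libraries of both genes were clear of the dark ones, with log2 fold changes of 2.62 and 2.96. TrB0250W had 61.5, 31.9 and 25.7 in Δrgs4 LL and 1.9, 0 and 0.9 in Δrgs4 DD, and TrB0421C had 19.0, 26.2 and 38.5 in Δrgs4 LL and 2.9, 2.3 and 0.9 in Δrgs4 DD. Their log2 fold changes were 3.78 and 2.87. The calls of TrF0119W and TrB0421C, and that of TrD1432C above, were lost with the values as deposited only.

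Between the strains in light, no gene of the set was called. Limma gave 0 genes called higher and 0 called lower in Δrgs4 LL than in QM6a LL, where 0.427% of all tested genes were called higher and 1.69% lower. At an unadjusted p under 0.05 there were 0 higher and 1 lower, against 13.7% and 12.7% of all tested genes. Limma-voom on the recovered reads called 0, with 2 higher and 2 lower at an unadjusted p under 0.05. The shares over all tested genes are from limma, and none is given for limma-voom. The QM6a LL values were used to choose the genes, so that this comparison is not independent of the choice. The log2 fold change was above 0 in 17 genes and below 0 in 12, with a median of 0.12 over the set and 0.02 over all tested genes. The ratio of the group means ran from 0.414 to 1.72 with a median of 1.09, and it was within 1.5 times in 23 genes. The median 95% interval of the log2 difference was 1.88 wide, and in 24 genes it reached beyond a doubling in at least 1 direction. The data therefore do not show that the strains are alike in these genes.

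The gene with the lowest ratio was TrA2035W, given above, in which every Δrgs4 LL library was below every QM6a LL library. It passed the filter on low values only through QM6a LL, where the rule required it to be high. Its log2 fold change was -1.13 (95% interval -1.95 to -0.31, adjusted p = 0.0799, limma), and over the alternatives the adjusted p ran from 0.0372 to 0.193. It was called lower without replicate 1 of Δrgs4 in DD, a library outside this contrast that enters the common estimate of the spread, and with a pseudocount of 5. It is 1 of the 3 genes closest to the lower limit in LL. TrC1159C had a log2 fold change of -1.03 (95% interval -2.22 to 0.15) and TrB1074W of -0.70 (95% interval -1.45 to 0.06). TrB1074W had 51.3, 55 and 61.6 normalized counts in QM6a LL, and replicate 1 of Δrgs4 in LL lay among these values while the other 2 were below them.

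On the higher side, TrB0774W had 55, 55 and 55.9 normalized counts in QM6a LL, below all 3 Δrgs4 LL libraries. Its log2 fold change of 0.59 (95% interval -0.07 to 1.26) had an adjusted p of 0.245 (limma). This was the only gene of the set with every Δrgs4 LL library above every QM6a LL library, and TrA2035W was the only gene with the opposite order, while 17.9% and 16.1% of all tested genes showed these patterns. TrG0196W had the highest log2 fold change, 1.05, with an interval of -0.50 to 2.60 and overlapping libraries. For TrD1022C the difference was -0.02 (95% interval -1.08 to 1.05).

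In darkness the set stayed low in Δrgs4 with 3 exceptions. Of the 29 genes 26 had a mean below 5 normalized counts in Δrgs4 DD as well. The exceptions were TrB1374C with a mean of 13.3, TrC1159C with 11.9 and TrD1303W with 9.85 normalized counts, against 4.74, 2.71 and 4.70 in QM6a DD. These 3 genes together had 105 reads over the Δrgs4 DD libraries and 36 over the QM6a DD libraries, while the other 26 genes had 163 and 141 reads. The 3 genes were sorted out by their Δrgs4 DD means, and the rule held QM6a DD below 5. The direction of this difference was therefore given by the sorting. TrB1374C and TrD1303W also lay closest to the limit in QM6a DD. Limma called 0 genes of the set higher and 0 lower in Δrgs4 DD than in QM6a DD, where 0% of all tested genes were called higher and 0.0899% lower. At an unadjusted p under 0.05 there were 3 higher and 1 lower, against 6.61% and 5.75% of all tested genes. With limma-voom there was 1 each and 0 were called, without a share over all tested genes for that fit. As the choice required low values in QM6a DD, it favoured higher values in Δrgs4 DD, and this comparison is not independent of it either.

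The 3 genes with an unadjusted p under 0.05 and higher values were TrC1159C, TrF0507C and TrD1303W. TrC1159C and TrD1303W are given above, and in both every Δrgs4 DD library was above every QM6a DD library. The same held for TrF0507C, which had 3.8, 7.0 and 3.7 normalized counts in Δrgs4 DD, against 0, 1.1 and 1.0 in QM6a DD. No other gene of the set showed this order, which 9.15% of all tested genes had. The log2 fold changes of the 3 genes were 1.44, 1.34 and 0.83 in the order TrC1159C, TrF0507C and TrD1303W, with adjusted p from 0.230 to 0.308 (limma). TrF0507C had the fourth highest mean of the set in Δrgs4 DD, 4.85 normalized counts, and was raised by light in Δrgs4 to 61.5, 82.1 and 89.8. The gene with a lower value was TrB0362C, with 0 reads in Δrgs4 DD, against 2.8, 0 and 4.0 normalized counts in QM6a DD (adjusted p = 0.364, limma).

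Without replicate 3 of Δrgs4 in DD, TrB1374C was called higher in Δrgs4 DD with a log2 fold change of 1.57 ± 0.33 (SE, adjusted p = 0.0251, limma). TrD1022C was then called lower with -1.32 ± 0.28 (SE, adjusted p = 0.0255, limma), a difference between 1 read in the Δrgs4 DD libraries that were kept and 13 reads in QM6a DD. In this fit 1.74% of all tested genes were called higher and 1.45% lower in Δrgs4 DD.

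The limits that chose the set were also applied to the Δrgs4 means. They were met by 29 genes, of which 23 belonged to the set chosen in QM6a, which is 79.3% of either list. The 6 genes of the set that did not meet them were the 3 with higher means in Δrgs4 DD, and TrA2035W, TrD1432C and TrA0023W, which had means of 8.89, 15.7 and 14.1 normalized counts in Δrgs4 LL. TrD1303W also fell below 20 in LL with a mean of 18.1, as did TrC1159C with 11.6. The 6 genes that met the limits in Δrgs4 alone were TrC1533C, TrD1059W, TrF0037C, TrC1465C, TrE1250C and TrA1484W. The first 3 of these had DD means in QM6a between 6.05 and 6.87, just above the limit, and the other 3 had LL means in QM6a between 12.9 and 14.9. TrC1533C had means of 1998 normalized counts in Δrgs4 LL and 1513 in QM6a LL.

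The limits cut through a continuous range. In LL the genes just inside were TrA0023W with a mean of 20.7, TrD1432C with 20.8 and TrA2035W with 21.5 normalized counts in QM6a, and those just outside were TrC0300C with 18.2, TrG1163C with 18.03 and TrE1179C with 17.7. In DD those just inside were TrB1374C with 4.74, TrD1303W with 4.70 and TrD1022C with 4.30, and those just outside were TrB0046C with 5.42, TrA0835C with 5.47 and TrE0049C with 5.50. Between 5 and 8 normalized counts in DD lay 27 further genes with at least 20 in LL. TrB1951W was one of them, with means of 2736 normalized counts in Δrgs4 LL and 1889 in QM6a LL. With the limits reversed, at least 20 in DD and below 5 in LL, 204 genes were found in Δrgs4 and 204 in QM6a, of which 153 were the same.

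By the median, the 29 genes varied more between cultures in light than the tested genes with a mean of at least 20 normalized counts. The latter were not matched to the set by level, and 5 genes of the set had means below 20 in Δrgs4 LL. The highest of the 3 Δrgs4 LL libraries was a median of 1.83 times the lowest, and 1.74 times in QM6a LL. Over all tested genes with a mean of at least 20 normalized counts this ratio was 1.18 in Δrgs4 LL and 1.14 in QM6a LL. It reached 3 or more in 3 genes of the set in Δrgs4 LL and in 6 in QM6a LL, against 2.39% and 1.23% of the genes with such a mean. Of the 3 genes in Δrgs4 LL, TrC1159C and TrA0023W had means below 20 there. Many genes of the set had few reads, and the part of this in the spread was not tested.

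In QM6a LL the lowest value was in replicate 1 for 17 of the 29 genes and in replicate 3 for 1 gene, while the highest was in replicate 3 for 19. Of all tested genes 36.9% were lowest in replicate 1 and 31.2% highest in replicate 3. The spread was widest in TrG0196W, TrD0147C, TrF0507C and TrC1527C, in which replicate 3 had 9.37, 6.52, 3.59 and 3.53 times the value of replicate 1. In contrast, TrD1022C, TrG0865W, TrC0864C and TrB0774W differed by at most 1.12 times between these libraries. In Δrgs4 LL the highest value was in replicate 1 for 15 genes, in replicate 2 for 9 and in replicate 3 for 5, against 40.9%, 34.1% and 24.96% of all tested genes.

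**Figure D3:**
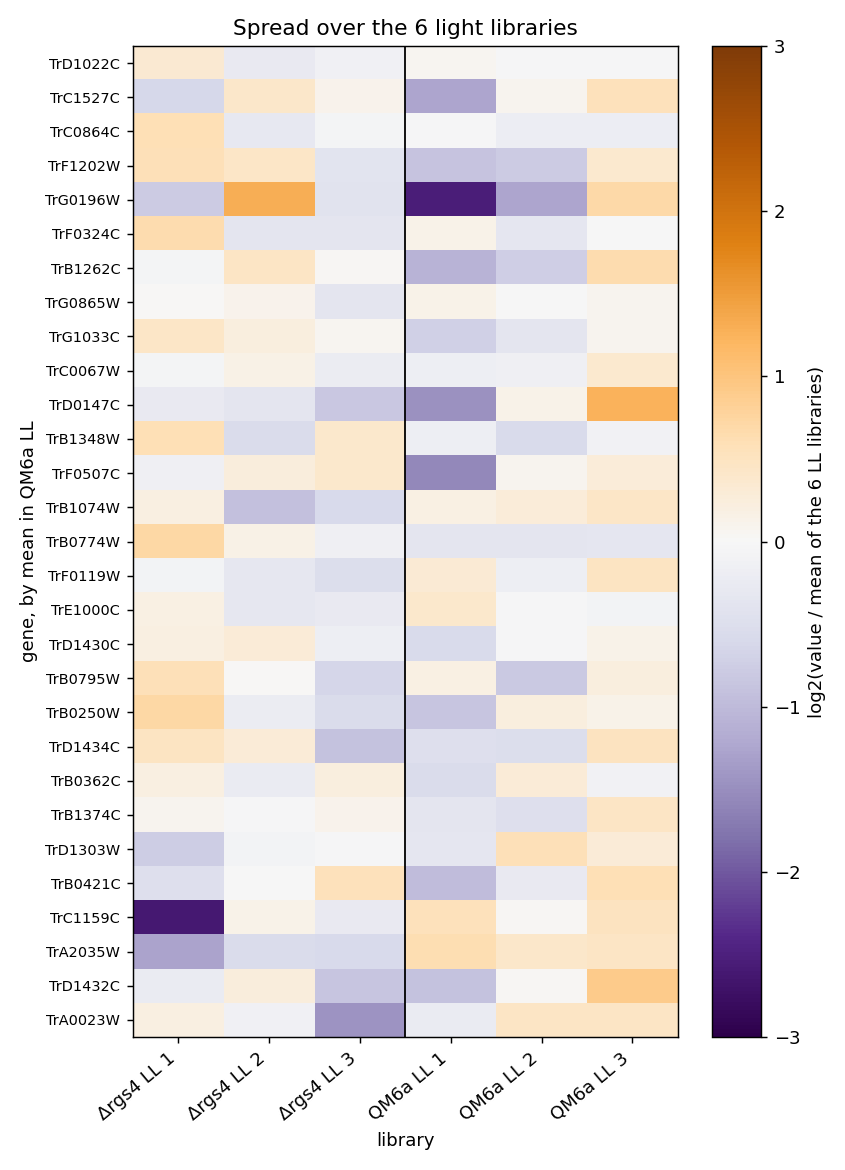
Value of each of the 29 genes in the 3 Δrgs4 LL and the 3 QM6a LL libraries, as the log2 ratio to the mean of these 6 libraries. Replicate 1 of QM6a in LL is low in TrG0196W, TrF0507C, TrD0147C and TrC1527C, while TrG0865W is nearly even over all 6 libraries.

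The identifiers give the positions. The letter after Tr was read as the chromosome, the number as the order along it and the last letter as the strand (W or C), as is usual in systematic gene names. The 29 genes were found under all 7 letters, with 9 on B, 6 on D, 4 on C, 4 on F, 3 on G, 2 on A and 1 on E. This was between 0.0765% of the numbered genes on E and 0.455% on B, against 0.267% over all. TrE0011 to TrE0016, of which 4 of 6 met the limits, were left out by the rule and are missing from the count on E. The strand letter was W in 13 genes and C in 16.

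No 2 genes of the set had successive numbers. The rule had left out TrE0011 to TrE0016, of which 4 of 6 met the limits, so that neighbours among these do not appear here. Within a difference of 5 numbers only 1 group was found, TrD1430C, TrD1432C and TrD1434C, which all carry the letter C and lie 13, 11 and 9 numbers before the last gene of D. TrD1430C had 54.3, 58.1 and 42.2 normalized counts in Δrgs4 LL and 3.8, 2.3 and 7.4 in Δrgs4 DD, against 31.8, 46.5 and 52.2 in QM6a LL and 0, 0 and 6.0 in QM6a DD. TrD1434C had 50.6, 44.5 and 19.3 in Δrgs4 LL and 0, 0 and 0 in Δrgs4 DD, against 25.7, 25.4 and 51.2 in QM6a LL and 5.7, 0 and 1.0 in QM6a DD. The 3 genes were called higher in Δrgs4 LL than in Δrgs4 DD with log2 fold changes of 3.10, 2.53 and 4.22 in the order of their numbers.

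The genes between them, TrD1431W and TrD1433W, carry the opposite strand letter and had too few reads for a test. TrD1431W had means of 9.39 normalized counts in Δrgs4 LL and 0 in Δrgs4 DD, and TrD1433W of 2.43 and 1.41. Together with TrA0023W and TrF1202W, which is 9 numbers before the last gene of F, 5 genes of the set were among the 25 genes at either end of a chromosome. This was 17.2% of the set and 3.22% of all numbered genes. TrD1430C, TrD1432C and TrD1434C lie in 1 group, so that the 5 genes are not 5 separate places. TrE0011 to TrE0016, which the rule left out, also lie among the 25 genes at an end and are not in the set's count.

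**Figure D4:**
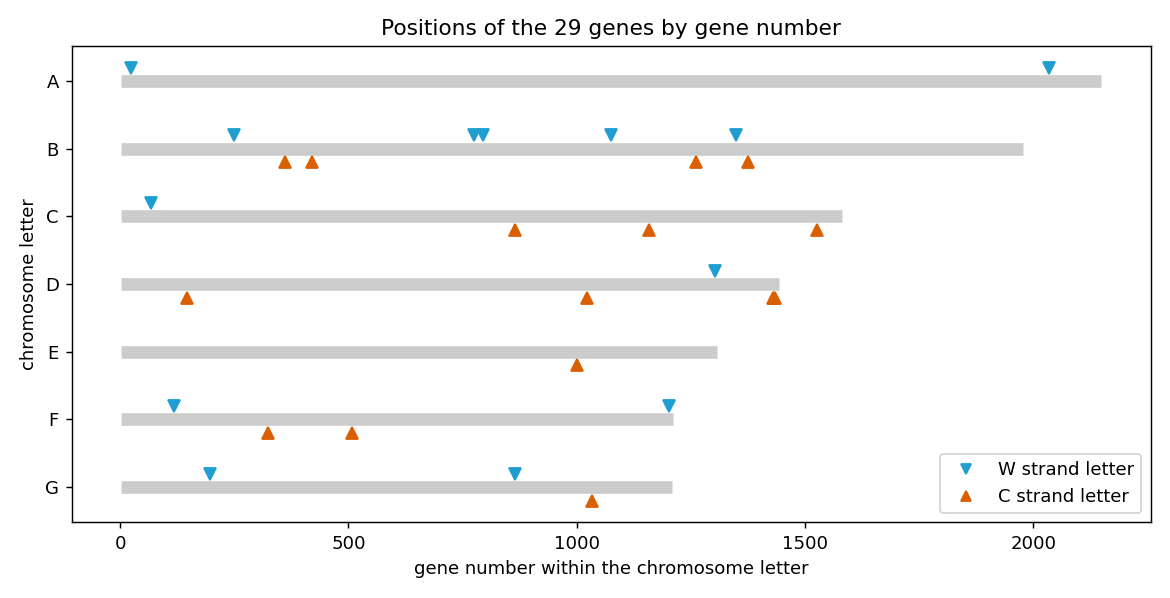
Positions of the 29 genes by gene number along the chromosome letters A to G, with grey bars up to the last number, markers above the bar for W and below it for C. The 3 genes TrD1430C, TrD1432C and TrD1434C overlap as 1 group at the end of D, and the others of the set stand alone. TrE0011 to TrE0016, left out by the rule, are not drawn.

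The genes directly beside the set were mixed in their light response. Of the 56 genes with a number next to that of a set gene, 41 were tested, and 12 of them (29.3%) were called higher and 10 (24.4%) lower in Δrgs4 LL than in Δrgs4 DD, while 14.2% and 22.0% of all tested genes were called. The median log2 fold change was 0.19 beside 4.02 in the set itself. Over the 120 tested genes within 3 numbers, 20.8% were called higher and 26.7% lower. In QM6a 13 of the 41 direct neighbours (31.7%) were called higher and 10 (24.4%) lower in LL. Of all tested genes 15.3% were called higher and 21.6% lower in QM6a.

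Some genes of the set stood beside others with a light response of the same direction. TrF0119W is preceded by TrF0118C, with means of 1219 normalized counts in Δrgs4 LL and 175.7 in Δrgs4 DD, and by TrF0117C with 218.1 and 8.64. These were called with log2 fold changes of 2.80 and 4.61. TrF1202W lies next to TrF1201C, with means of 3107 in Δrgs4 LL and 276.3 in Δrgs4 DD and a log2 fold change of 3.44. TrA2035W lies next to TrA2034C (log2 fold change 2.94), TrB0362C next to TrB0361C (2.27), TrB1348W next to TrB1347W (2.2) and TrC0864C next to TrC0865W (1.98). Of the 12 direct neighbours called higher in Δrgs4 LL, 3 carry the strand letter of the set gene and 9 the opposite one, and of the 41 tested neighbours 17 and 24 do.

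Other neighbours were switched the opposite way. TrD0146W, beside TrD0147C, had means of 1.97 normalized counts in Δrgs4 LL and 1165 in Δrgs4 DD, and of 0.948 in QM6a LL and 1223 in QM6a DD. TrC1526W, beside TrC1527C, had means of 9.77 in Δrgs4 LL and 413.9 in Δrgs4 DD. Both were called lower in Δrgs4 LL with log2 fold changes of -8.01 and -5.27. TrA0022W beside TrA0023W and TrF0506C beside TrF0507C followed with -3.01 and -2.95. Of the 10 direct neighbours called lower, 3 carry the strand letter of the set gene and 7 the opposite one. TrD0147C, TrF0507C, TrB1074W, TrD1303W, TrA2035W and TrA0023W had 1 direct neighbour called higher and 1 called lower each. TrG0196W lies between genes with 0 reads in all 12 libraries.

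TrC1159C, the gene without a call in Δrgs4, lies next to TrC1160W, which had means of 46740 normalized counts in Δrgs4 LL, 11640 in Δrgs4 DD, 57830 in QM6a LL and 10450 in QM6a DD. The labels name a stranded library kit, but which strand setting was used in counting is not stated. Reads of overlapping genes, and of genes on opposite strands, may therefore not be told apart, and their part in the values of TrC1159C and of the other genes beside strongly transcribed neighbours was not tested.

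**Figure D5:**
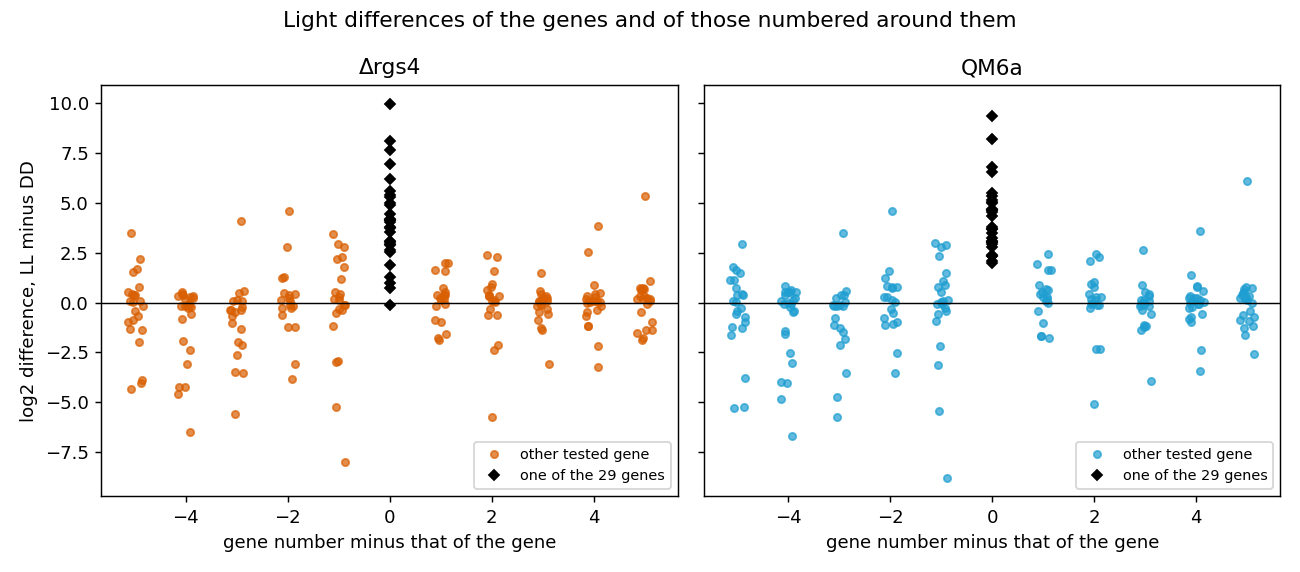
Log2 difference between LL and DD in Δrgs4 (left) and QM6a (right) for the 29 genes (diamonds at 0) and for the tested genes up to 5 numbers to either side (points, spread sideways for visibility). The genes around the set lie on both sides of 0, while the diamonds lie above 0 except for TrC1159C in Δrgs4 at -0.14. In QM6a the rule that chose the 29 genes placed their diamonds above 0.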

How the data were processed

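RNA of 12 cultures was sequenced after rRNA depletion with a stranded kit, per the labels. The authors aligned reads with HISAT2 2.2.1 and deposited 1 value per gene and library from the variance stabilizing transformation in DESeq2, a log2-like scale. A deposited table of raw counts was not used, since its 12 per-sample columns carry sequencing identifiers that nothing pairs with samples. For the counting, a strand setting was not given in the sources.

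The lowest deposited log2 value, 6.74, corresponds to 0 reads. Inverting the transformation with it returned normalized counts, from which whole reads were recovered by the smallest step per library (all values whole within 0.01). Reads on genes were 11.25 to 15.84 M per library (M, mega). Limits derived from numbers of reads concern counting error alone.

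Limma 3.58.1 in R 4.3.3 was run on log2(normalized counts + 2) with 4 group means, 12 libraries and a variance trend. Tested were the 8895 genes that reached 10 reads in 3 or more libraries. A call needed a log2 fold change beyond 0.58 in size and a Benjamini-Hochberg adjusted p under 0.05. The fit was run on simulated data that had the same spread setting for all genes. This does not show how the fit performs for genes near 0 reads in DD or with a wide spread. Contrasts were LL against DD in Δrgs4, and Δrgs4 against QM6a in LL and in DD. LL against DD in QM6a chose the genes, and is given without a test for them. With a pseudocount the change of low genes is understated, and for genes at 0 reads it depends on the pseudocount.

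Groups follow the sample titles. Alternatives were other pseudocounts, the deposited values, limma-voom on recovered reads, TMM factors, a filter of 1 read, a fit of the 6 libraries of each contrast alone, a block for the replicate number, adjusted p alone, and leaving out each library. Python 3.11.15 with pandas 2.3.3 and matplotlib 3.10.9 was used for tables and plots.

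The genes and lists were chosen with earlier results of these data known. Named in the text are genes of the set with the 10 highest means in QM6a LL, the 6 smallest log2 fold changes in Δrgs4, the 4 highest means in Δrgs4 DD, runs of at least 3 with gaps of at most 2 numbers, up to 6 genes called in each direction between the strains in LL (none was), genes described in the study (none was), and 3 genes on each side of each limit. Other genes named, all neighbours among them, were chosen after their values were seen.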

Additional observations from a re-analysis of the deposited data

How the results depend on the processing

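The number of genes called higher in Δrgs4 LL than in Δrgs4 DD, 28, was 21 with the values as deposited and 24 to 28 in the other settings, and 25 to 28 when 1 library was left out. The calls of 21 genes held in every setting. The median log2 fold change of the set in this comparison, 4.02, was 4.97 with a pseudocount of 0.5, 2.95 with a pseudocount of 5, 4.93 with limma-voom and 0.80 with the values as deposited, a scale that is compressed at low values, and 3.91 to 4.12 when 1 library was left out. TrC1159C had a log2 fold change of -0.14 and changed its sign when 1 library was left out, with values of 0.01, 0.17 and 0.50 among a range of -0.60 to 0.50. Between the strains in LL 1 gene (TrA2035W) was called lower with a pseudocount of 5, and 0 to 1 when 1 library was left out, and the median ran from -0.13 to 0.20. In DD 0 to 1 genes were called in either direction when 1 library was left out, and the median ran from 0.03 to 0.30.

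The rule itself gave 15 genes with a QM6a DD mean below 2, 73 below 10, 73 with a QM6a LL mean of 10 or more and 19 with 40 or more, and 28 to 34 when 1 QM6a library was left out. Of the set, 22 to 23 genes met the same limits in Δrgs4 when 1 Δrgs4 library was left out. With gene numbers that differ by at most 2, 3 or 5, 3 genes had another of the set beside them. Whether replicate numbers pair the cultures is not settled by the values: the correlation of same-numbered deviations ran from -0.406 to 0.347. With the replicate number as a block 27 genes were called in Δrgs4 LL against DD, and 0 between the strains in LL or in DD. Depth limits the genes with few reads, since 11 of the 29 had fewer than 5 reads over the 3 Δrgs4 DD libraries.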
